A study of Rattus norvegicus with 138 samples.

Results

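The genes of glycolysis and glycogen metabolism were followed in the rat tibialis anterior (TA) after volumetric muscle loss (VML). The list held 37 genes, chosen by symbol for their place in the pathway and not by their measured values, out of 16181 gene symbols in the expression table, and all 37 were in the table and passed the filter on low values. They were set in lists by the cell in which each isoform is best known. Of the 37 genes, 18 are isoforms or regulators typical of the muscle fiber, 12 are isoforms better known from other cells, and 7 are enzymes that most cells share. The lists and the members were drawn up with earlier results of these data known.

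RNA-Seq was done on whole TA muscles of inbred male Lewis rats of about 4 months of age. The left TA was injured by a full-thickness defect cut with a 6 mm punch in the middle of the muscle, with a narrow rim of tissue left on each side, and taken at 3, 7, 14 or 28 days post injury (DPI). The wound was left without repair or was repaired with an autologous minced muscle graft (MMG) prepared from the tissue that had been cut out, so that grafted wounds received muscle back. The right TA of injured rats served as the contralateral muscle, and the controls (labelled Sham, day 0) were both TA muscles of 2 rats without operation. The control rats carry a different series of numbers from all injured rats, so that series and injury cannot be told apart in comparisons with control. Some rats of each arm carry the label "Run", which neither the labels nor the methods explain, and they were held in groups of their own.

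Among the libraries whose labels agreed on a group, 13 were left out because they held only 901 to 5712 symbols above 1 TPM (the share of a transcript in all RNA, corrected for its length), whereas the 116 libraries used held 7866 to 10948. These gave 114 muscles of 78 rats. Without running there were 10, 16, 8 and 8 injured muscles and 4, 10, 4 and 4 contralateral muscles at 3, 7, 14 and 28 days, with both repair arms combined, and 4 control muscles. The files gave TPM and no counts, so that the depth behind each value is unknown. A gene was called changed when the limma test on log2(TPM + 1) gave an adjusted p-value under 0.05 and a log2 fold change beyond 1 in either direction.

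A muscle fiber takes up glucose from the blood, or frees it from its own glycogen, and splits it through glycolysis to pyruvate and lactate. Fast fibers, which make up most of the rat TA, depend on this route for brief bursts of work and carry their own isoforms of many of its enzymes. Leukocytes, fibroblasts, endothelial cells and myoblasts run the same reactions, at many steps with isoforms encoded by other genes. Steps with isoforms of both kinds can therefore be compared within a muscle, whereas the shared enzymes offer no such contrast. The lists are not exclusive. How much of a gene on the muscle list, such as Aldoa, Ldha or Hk2, came from other cells cannot be told in whole muscle.

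The muscle was dominated by the muscle isoforms before injury. In the 4 control muscles the 37 genes together made up 9.88% of all TPM, of which the 18 muscle isoforms held 6.07% and the 12 isoforms of other cells 0.0475%. At 3 DPI the summed TPM of the muscle isoforms was 9580 ± 2204 (SD, n = 10) in injured TA and 46214 ± 3388 (n = 4) in contralateral TA. The sum of the isoforms of other cells moved the other way, from 499 ± 42.1 in contralateral to 1323 ± 234 in injured muscles. The injured and contralateral muscles did not overlap in either sum at 3 days. At 28 DPI the muscle isoforms summed to 39194 ± 7673 (n = 8) against 59136 ± 1800 (n = 4), still without overlap, while the isoforms of other cells summed to 494 ± 56.2 against 543 ± 64.9 and overlapped. Eno1, Ldhb, Pfkfb3 and Slc16a1 made up most of this sum, at 207, 108.1, 125.04 and 67.5 TPM in contralateral TA at 28 DPI. Without Pfkfb3 and Ldhb, left out after their values were seen, it was 326 ± 28.8 against 310 ± 19.7 TPM, also with overlap, while Hk1, Hk3, Pfkl, Pfkp, Pygl, Pgam1 and Slc2a1 were each higher in the injured muscle of all 4 rats with both muscles.

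Against contralateral TA, 8 of the 37 genes rose and 20 fell at 3 DPI, when 34.8% of all 11328 genes tested rose and 6.39% fell. At 7 DPI 7 rose and 22 fell, beside 43.8% and 2.62% of all genes. At 14 DPI 6 rose and 5 fell, beside 23.4% and 0.344%, and at 28 DPI 5 rose and 3 fell, beside 16% and 0.265%. The falls were thus more frequent among these genes than among all genes on each day, whereas the rises were near or under the background on each day. The 18 muscle isoforms held 15, 15, 4 and 2 falls and no rise on the 4 days, with a median log2 fold change of -2.41, -1.69, -0.66 and -0.47. The 12 isoforms of other cells held 8, 7, 6 and 5 rises and 1 fall on each day, with medians of 2.34, 1.98, 0.94 and 0.73. Of the 7 shared enzymes, 4 and 6 fell at 3 and 7 days and none was called at 14 and 28 days.

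The scale of TPM matters for the size of these counts. The median log2 fold change of all genes tested was 0.60, 0.87, 0.54 and 0.43 at 3, 7, 14 and 28 days. After scaling each library by its size factor the medians were 0.06, 0.06, 0.01 and 0.03. With that scaling, in which 11180 genes passed the filter, 8 members rose and 28 fell at 3 DPI (21.2% and 14.5% of all genes), 6 and 25 at 7 DPI (20% and 13.3%), 3 and 22 at 14 DPI (12% and 5.05%), and 2 and 13 at 28 DPI (8.59% and 2.21%). By list, 18, 16, 15 and 9 of the 18 muscle isoforms and 7, 6, 6 and 3 of the 7 shared enzymes then fell on the 4 days, and of the isoforms of other cells 8, 6, 3 and 2 rose and 3, 3, 1 and 1 fell. No called member changed direction between the scales, but the rises of Hk1 and Slc2a1 at 14 and 28 days, Pfkl at 14 days, Pygl at 28 days and Pgam1 at 7 days kept a log2 fold change under 1 after scaling.

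**Figure D1:**
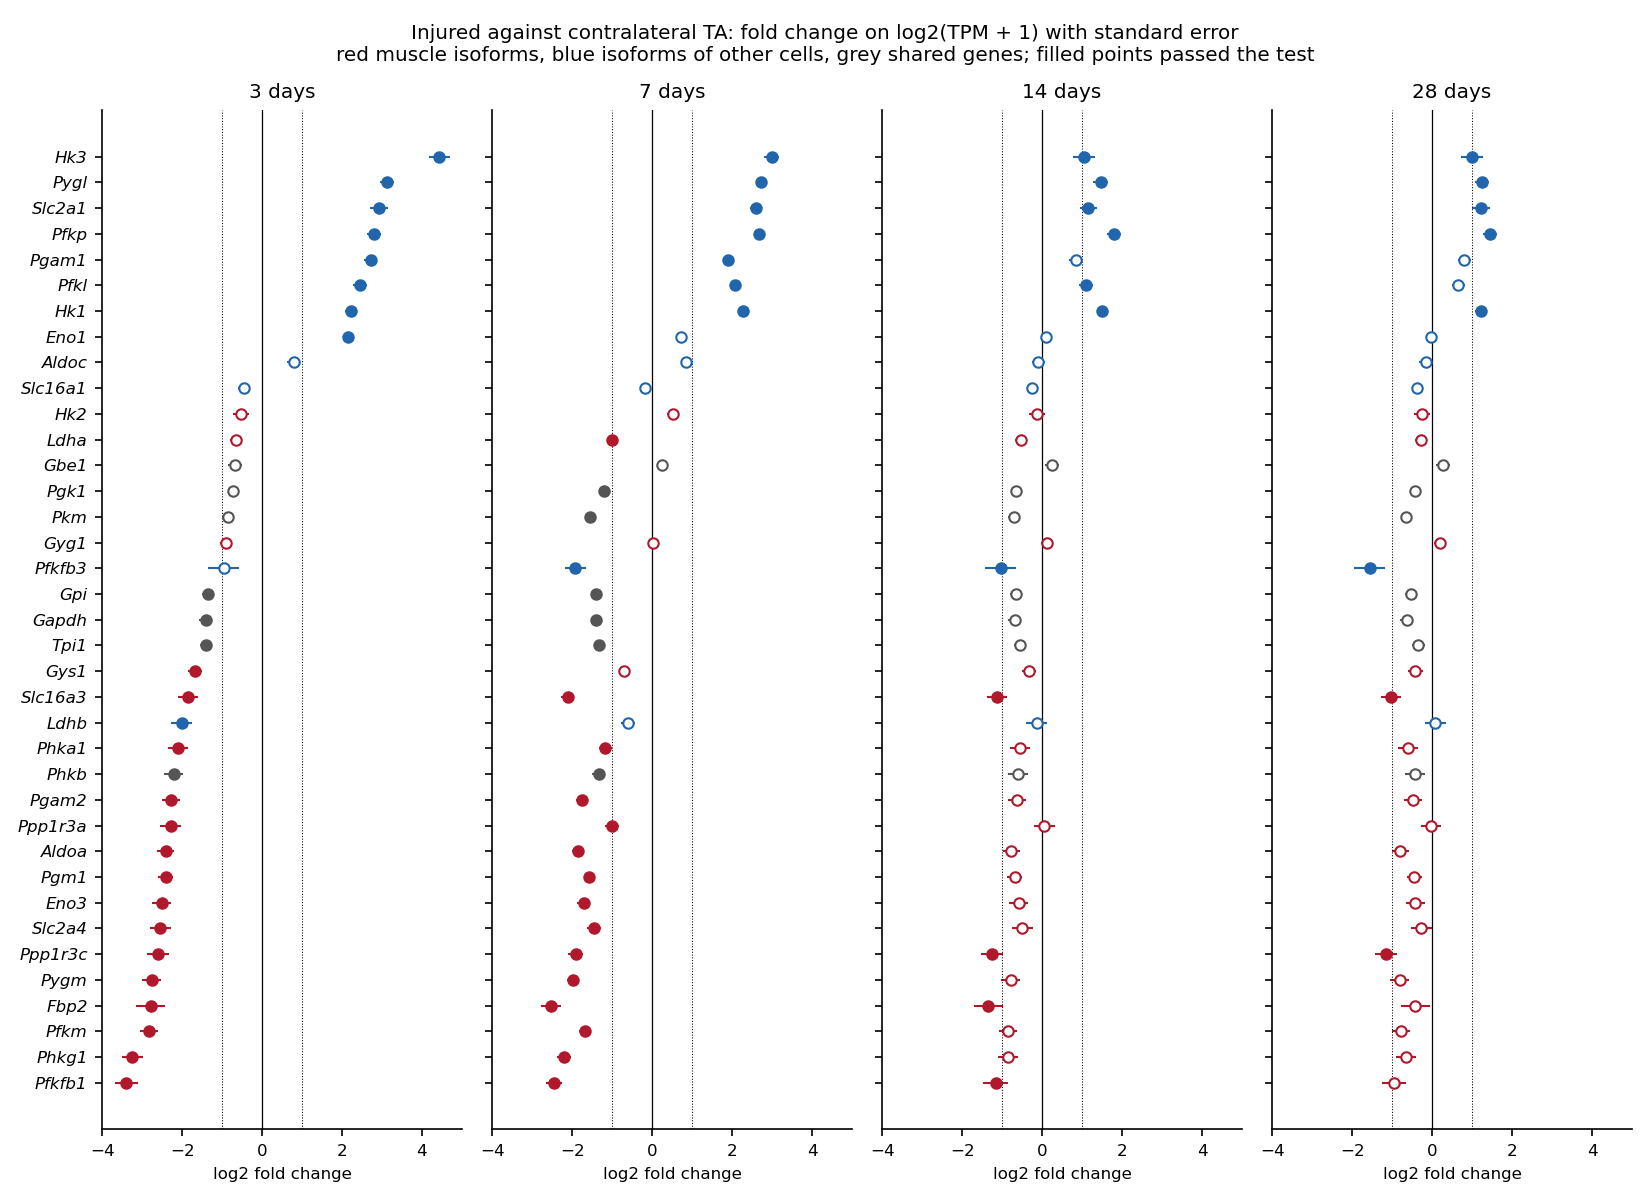
Log2 fold change of each of the 37 genes between injured and contralateral TA on log2(TPM + 1), with its standard error, at 3, 7, 14 and 28 days. The muscle isoforms lie to the left of zero at 3 days (-3.39 to -0.53), most isoforms of other cells lie to the right, and at 28 days 8 points are filled (called genes).

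Glucose enters the fiber through Glut4 (Slc2a4), the transporter that insulin and contraction bring to the surface, and other cells use Glut1 (Slc2a1). Slc2a4 stood at 381, 389, 390 and 403 TPM in the 4 contralateral muscles at 3 DPI and at 27.3 to 111 TPM (median 73.5) in the 10 injured muscles. Slc2a1 stood at 2.20, 2.82, 2.85 and 3.56 TPM in the same contralateral muscles and at 16.8 to 40.7 TPM (median 30.8) in the injured ones. The groups did not overlap for either transporter. Slc2a4 fell by 2.54 ± 0.26 (SE) on the log2 scale (adjusted p = 5.73e-15) and Slc2a1 rose by 2.92 ± 0.22 (8.33e-22). At 28 DPI Slc2a4 stood at 323 ± 40.4 (SD, n = 8) against 388 ± 19.8 TPM (n = 4), without overlap, and its log2 fold change of -0.27 ± 0.26 missed the threshold (adjusted p = 0.353). Slc2a1 remained higher at 28 DPI, with 4.19 ± 1.21 against 1.21 ± 0.36 TPM (log2 fold change 1.22 ± 0.22, adjusted p = 1.52e-06).

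Hexokinase then traps glucose as glucose 6-phosphate. Hk2 is the insulin-regulated enzyme of muscle, Hk1 that of most cells, and Hk3 an isoform best known from myeloid cells. Hk3 was listed at 0 in all 4 control muscles and at 0.08, 0.09, 0.11 and 0.13 TPM in contralateral TA at 3 DPI. It ran from 14.8 to 41.2 TPM (median 24.1) in the 10 injured muscles, the highest log2 fold change of the 37 genes (4.44 ± 0.27, adjusted p = 4.48e-27). Its level in injured TA was lower at the later days, with 8.39 ± 4.41 TPM at 7 DPI (n = 16), 1.13 ± 0.43 at 14 DPI (n = 8) and 1.22 ± 1.03 at 28 DPI (n = 8), and each of these groups lay above its contralateral muscles, none of which passed 0.1 TPM after 3 days. At 28 DPI the Hk3 rise lay at the fold limit on log2(TPM + 1) (1.01 ± 0.27), which compresses such low levels, and was 3.18 ± 0.38 with a pseudocount of 0.1 TPM. On the first scale it was 0.81 without the injured muscle of unrepaired rat 082, 0.94 and 0.95 without those of grafted rats 076 and 084, and just under 1 without either of 2 contralateral muscles. Hk1 rose on all 4 days, from 27.5 ± 6.24 against 4.69 ± 0.66 TPM at 3 DPI to 9.06 ± 1.88 against 3.28 ± 0.52 TPM at 28 DPI.

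Between injured and contralateral TA, Hk2 was not called on any day on TPM in the libraries used. It stood at 61.6, 67.3, 74.8 and 77.7 TPM in contralateral TA at 3 DPI and at 37.8 to 62.6 TPM in injured TA, which overlapped. At 7 DPI the injured muscles held more of it, 47.5 ± 11.4 against 33.2 ± 5.63 TPM, and it was higher in the injured than in the own contralateral muscle in 9 of 10 rats. Neither difference passed the fold limit (log2 fold change -0.53 ± 0.20 and 0.51 ± 0.13). After scaling by size factors the 3-day difference passed as a fall (-1.16) and the 7-day one was -0.49. The sign at 7 days thus depended on the scale. With all libraries kept, the 7-day difference was called as a rise on TPM (1.11 ± 0.27, limma, adjusted p = 9.25e-05).

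Phosphofructokinase commits the sugar to glycolysis. Pfkm encodes the muscle subunit, Pfkl that of liver and Pfkp that of platelets, and the bifunctional enzymes Pfkfb1 and Pfkfb3 set the level of its activator fructose 2,6-bisphosphate. Pfkm stood at 2901, 2958, 3084 and 3106 TPM in contralateral TA at 3 DPI and at 192 to 607 TPM (median 441) in injured TA, and it fell by 2.82 ± 0.22 on the log2 scale (adjusted p = 9.44e-21). Its log2 fold change was -1.67 ± 0.15 at 7, -0.85 ± 0.22 at 14 and -0.79 ± 0.22 at 28 DPI, the last pair under the fold limit. Pfkl and Pfkp rose where Pfkm fell. Pfkl was at 40.3 ± 11.99 against 5.78 ± 0.52 TPM at 3 DPI (log2 fold change 2.45 ± 0.17), and Pfkp was at 20.1 ± 4.13 against 1.88 ± 0.44 TPM (2.80 ± 0.17). Pfkp had the highest log2 fold change of the members on log2(TPM + 1) at 14 and 28 DPI (1.79 ± 0.18 and 1.46 ± 0.18), whereas with a pseudocount of 0.1 TPM Hk3 was the highest (3.29 and 3.18) and Pfkp followed (2.46 and 2.07). At 28 DPI Pfkp stood at 4.59 ± 1.36 TPM in injured muscles against 0.84, 0.89, 1.00 and 1.23 TPM in the contralateral ones.

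Pfkfb1 was the member with the lowest log2 fold change at 3 DPI (-3.39 ± 0.30, adjusted p = 3.81e-18). The 4 contralateral muscles lay close together, between 101.8 and 103.6 TPM, and the injured ones at 4.12 to 14.2 TPM (median 8.60). It was at 15.1 ± 7.74 TPM at 7, 45.5 ± 12.5 at 14 and 61.4 ± 18.03 at 28 DPI, below every contralateral muscle of the same day each time. Pfkfb3 had been placed among the isoforms of other cells, but the data went against that place, with 39.8, 48.1, 75.9 and 154 TPM in the control muscles. Its contralateral muscles were widely spread, at 22.4, 47.5, 87.4 and 127.6 TPM at 3 DPI and at 65.8, 122, 132.5 and 179 TPM at 28 DPI. Pfkfb3 fell at 7, 14 and 28 DPI (log2 fold change -1.92 ± 0.26, -1.04 ± 0.39 and -1.56 ± 0.39), and the injured and contralateral ranges overlapped on each of these days. The 14-day call was lost without any of 4 muscles, with a log2 fold change of -0.52 without 1 contralateral muscle of an unrepaired rat.

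Aldolase A (Aldoa), the muscle form that splits fructose 1,6-bisphosphate, was together with Gapdh the most abundant member. Aldoa stood at 17036, 18483, 19691 and 19966 TPM in contralateral TA at 3 DPI and at 2170 to 4400 TPM in injured TA (log2 fold change -2.40 ± 0.21). Aldolase C (Aldoc), best known from brain, was at 6.09 ± 1.44 against 2.81 ± 0.30 TPM, a difference under the fold limit (0.79 ± 0.16). Of the enzymes that all cells share, glucose 6-phosphate isomerase (Gpi), triosephosphate isomerase (Tpi1) and glyceraldehyde 3-phosphate dehydrogenase (Gapdh) fell at 3 and 7 DPI. Gapdh, often used as a reference gene for muscle RNA, stood at 18017, 20025, 20034 and 20119 TPM in contralateral TA at 3 DPI and at 5276 to 9468 TPM (median 7712) in injured TA, a log2 fold change of -1.41 ± 0.16 (adjusted p = 4.49e-13). At 28 DPI Gapdh was at 15337 ± 3337 against 23165 ± 1596 TPM, without overlap but under the fold limit (-0.63 ± 0.16).

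The lower steps turn triose phosphate to pyruvate. Phosphoglycerate mutase exists as a muscle form (Pgam2) and as the form of brain and most other tissues (Pgam1), and enolase as the muscle form Eno3 and the widespread form Eno1. Pgam2 stood at 3981, 4314, 4340 and 5320 TPM in contralateral TA at 3 DPI and at 342 to 1347 TPM (median 976) in injured TA (log2 fold change -2.28 ± 0.23). Pgam1 stood at 26.5, 28.8, 31.4 and 32.3 TPM and at 130.6 to 375 TPM (median 215), a rise of 2.72 ± 0.16. In 1 injured muscle Pgam1 exceeded Pgam2, since the log2 ratio of Pgam2 to Pgam1 reached down to -0.13. Eno3 and Eno1 came to like levels in the injured TA at 3 DPI, at 1078 ± 359 and 807 ± 138.7 TPM (n = 10), from 6223 ± 581 and 171 ± 11.1 TPM in contralateral TA (n = 4). The rise of Eno1 was short, though with all libraries kept it was also called at 7 DPI (1.60). Its log2 fold change was 2.16 ± 0.11 at 3, 0.73 ± 0.07 at 7 (-0.29 after size factors), 0.10 ± 0.11 at 14 and -0.04 ± 0.11 at 28 DPI, and at 28 DPI the groups overlapped, with 173 to 232 TPM in injured and 185, 199, 213 and 230 TPM in contralateral muscles. Pyruvate kinase (Pkm) and phosphoglycerate kinase (Pgk1) were called lower on TPM at 7 DPI only among the 4 days (-1.55 ± 0.10 and -1.20 ± 0.08). Both were lower in the injured muscle of every rat with both muscles on all 4 days. After size factors both were also called lower at 3 DPI. Pkm is spliced into a muscle form and a form of growing cells, and the gene-level values here do not separate them.

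**Figure D2:**
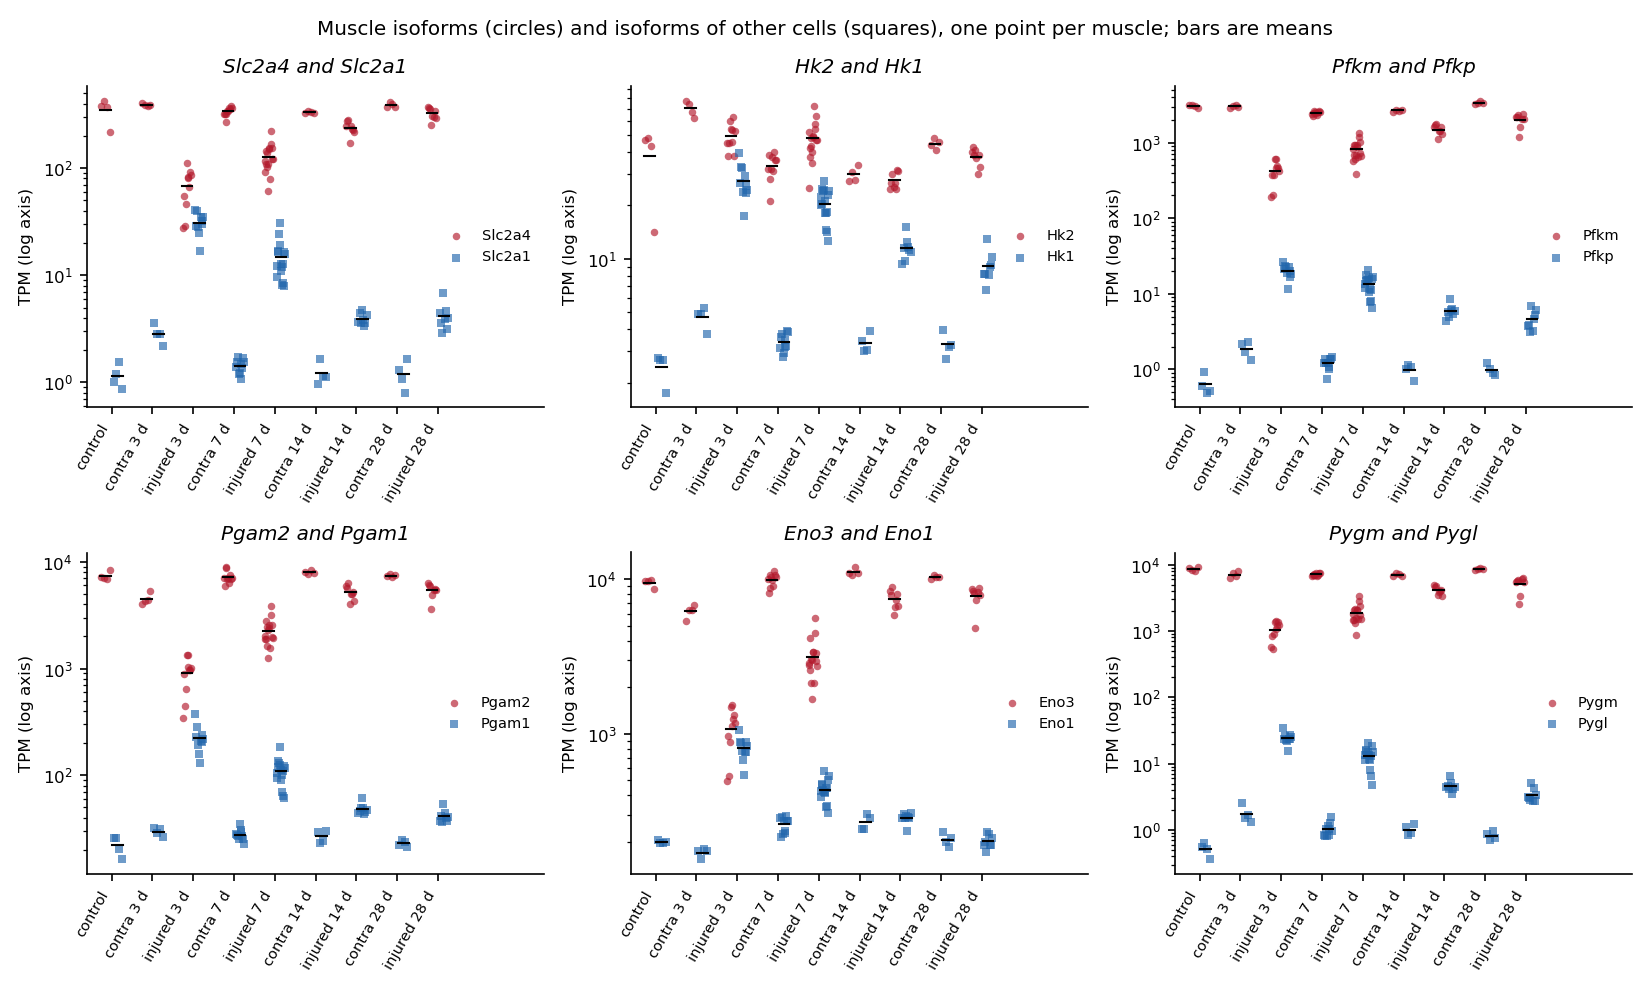
TPM (log axis) of 6 isoform pairs in control, contralateral and injured TA of rats without running, with circles for the muscle isoform, squares for the isoform of other cells, 1 point per muscle and bars at the means. Injured muscles at 3 days have Eno3 at 494.7 to 1532 and Eno1 at 546 to 1062 TPM, and all isoforms shown except Hk2 move towards the contralateral level by 28 days.

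Lactate dehydrogenase A (Ldha) makes lactate from pyruvate, Ldhb favours the reverse, and Slc16a3 (Mct4) and Slc16a1 (Mct1) carry lactate out of and into cells. Slc16a3 fell on all 4 days, with 62.7 ± 9.74 against 232 ± 44.4 TPM at 3 DPI (log2 fold change -1.85 ± 0.25) and 166 ± 45.4 against 327 ± 9.71 TPM at 28 DPI (-1.03 ± 0.25), when the contralateral muscles lay at 319, 320, 331 and 340 TPM and none of the injured ones passed 215 TPM. The 28-day fall lay near the fold limit and was -0.89, -0.96 and -0.99 without the injured muscles of rats 076, 081 and 082. On TPM, Slc16a1 was not called on any day. On the same scale Ldha was called lower at 7 DPI alone (-1.01 ± 0.09), a call lost without either of 2 contralateral muscles of unrepaired rats (-0.99 each). After size factors Ldha was also called lower at 3 DPI. It was lower in the injured muscle of every rat with both muscles on all 4 days. Ldhb had been placed among the isoforms of other cells but was at 95.3, 103.95, 107.1 and 120 TPM in the control muscles. It fell at 3 DPI, from 123, 130, 130.7 and 167 TPM in contralateral to 17.9 to 52.3 TPM in injured TA (-2.01 ± 0.26), and at 28 DPI it was at 123 ± 47.2 against 108.1 ± 23.2 TPM. The log2 ratio of Ldha to Ldhb was 5.69 ± 0.42 in injured and 4.30 ± 0.21 in contralateral TA at 3 DPI, and 4.44 ± 0.31 and 4.84 ± 0.27 at 7 DPI.

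Glycogen is built by glycogenin (Gyg1), glycogen synthase (Gys1) and the branching enzyme (Gbe1), and is broken down by glycogen phosphorylase, which phosphorylase kinase (Phka1, Phkb, Phkg1) switches on. The muscle phosphorylase Pygm stood at 6207, 6772, 7441 and 7924 TPM in contralateral TA at 3 DPI and at 534 to 1408 TPM (median 1123) in injured TA (log2 fold change -2.76 ± 0.23). The liver phosphorylase Pygl rose from 1.31, 1.49, 1.66 and 2.51 TPM to 15.3 to 34.8 TPM (median 23.7; 3.13 ± 0.18), and it was still higher at 28 DPI, at 3.40 ± 0.84 against 0.82 ± 0.11 TPM (1.26 ± 0.18). The catalytic subunit Phkg1 fell by 3.25 ± 0.26 on the log2 scale at 3 DPI, next to Pfkfb1 the lowest of the members, and the regulatory subunits Phka1 and Phkb fell by 2.09 ± 0.25 and 2.21 ± 0.24. Phosphoglucomutase Pgm1, which links glycogen to glycolysis, fell by 2.41 ± 0.19 at 3 and by 1.58 ± 0.13 at 7 DPI.

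The enzymes that build glycogen had smaller log2 fold changes at 3 DPI (-1.68 to -0.67) than the muscle phosphorylase Pygm and the kinase subunits (-3.25 to -2.09), a difference that was not tested. On TPM, Gys1 fell at 3 DPI (-1.68 ± 0.18) and was not called later, and Gyg1 and Gbe1 were not called on any day. After size factors Gys1, Gyg1 and Gbe1 were each called lower at 3 DPI, as were all muscle isoforms and shared enzymes. Gyg1 at 28 DPI was at 374 ± 12.5 in injured against 326 ± 24.4 TPM in contralateral TA (0.20 ± 0.14). The targeting subunits that hold protein phosphatase 1 at glycogen differed from each other. Ppp1r3a, the form of striated muscle, fell at 3 DPI (-2.29 ± 0.25) and, at the fold limit, at 7 DPI (-1.002 ± 0.17, -0.94 and -0.92 without either of 2 contralateral muscles of unrepaired rats, -0.99 with the rat as a block), and it was at 88.4 ± 9.60 against 89.6 ± 7.02 TPM at 28 DPI. Ppp1r3c, also called protein targeting to glycogen, fell on all 4 days and was still at 156 ± 44.3 TPM at 28 DPI, below the 315, 318, 340 and 371 TPM of the contralateral muscles (-1.15 ± 0.28, adjusted p = 0.00017). Fbp2, the muscle fructose 1,6-bisphosphatase that runs the pathway in reverse, had the lowest log2 fold change at 7 and 14 DPI (-2.52 ± 0.24 and -1.35 ± 0.36) and overlapped with contralateral TA at 28 DPI, at 92.5 ± 29.1 against 119 ± 27.4 TPM.

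The start regions of both kinds of isoform are shown for the pairs Pgam2 and Pgam1 and Pygm and Pygl, which moved in opposite directions at 3 DPI. They were chosen after the motifs had been counted and are not typical, since Pgam2 and Pygm were the only members with 2 CAGCTG in their windows from the RefSeq table (build GRCr8). Of the 37 genes, 34 matched the table, with 39 starts in all. Each window holds the 250 bases before the start, written 5′ to 3′ along the gene's own strand, and the capitals mark CAGCTG, an E-box of the kind that myogenic factors bind, and GGGCGG or its reverse complement, the GC box, with overlapping copies counted apart. Pgam2 lies at chr14:84897875-84898124 on the minus strand, Pgam1 at chr1:250672902-250673151 on the plus strand, Pygm at chr1:213119555-213119804 on the plus strand and Pygl at chr6:94476220-94476469 on the minus strand.
Pgam2: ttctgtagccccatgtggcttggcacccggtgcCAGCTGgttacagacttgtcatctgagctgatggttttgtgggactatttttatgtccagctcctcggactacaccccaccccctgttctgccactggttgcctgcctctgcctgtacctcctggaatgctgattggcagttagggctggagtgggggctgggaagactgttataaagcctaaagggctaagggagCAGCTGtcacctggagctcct
Pgam1: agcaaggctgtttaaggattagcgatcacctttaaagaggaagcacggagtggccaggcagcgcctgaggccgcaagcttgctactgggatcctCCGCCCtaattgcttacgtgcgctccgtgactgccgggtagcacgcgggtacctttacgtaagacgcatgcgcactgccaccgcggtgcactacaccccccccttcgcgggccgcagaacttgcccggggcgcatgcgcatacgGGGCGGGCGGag
Pygm: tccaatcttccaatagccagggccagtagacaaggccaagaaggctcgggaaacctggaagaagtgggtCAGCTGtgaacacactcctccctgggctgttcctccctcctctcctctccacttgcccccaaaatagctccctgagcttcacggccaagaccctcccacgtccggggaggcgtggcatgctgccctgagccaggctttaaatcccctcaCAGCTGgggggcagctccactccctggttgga
Pygl: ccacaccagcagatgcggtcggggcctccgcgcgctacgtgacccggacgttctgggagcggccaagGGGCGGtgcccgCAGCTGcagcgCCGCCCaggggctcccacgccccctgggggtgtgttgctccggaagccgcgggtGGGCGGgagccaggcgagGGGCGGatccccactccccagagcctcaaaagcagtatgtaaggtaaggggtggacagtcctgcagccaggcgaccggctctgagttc
The windows of Pgam2 and Pygm held 2 CAGCTG each and no GGGCGG, and those of Pgam1 and Pygl held 3 and 4 GGGCGG, with 1 CAGCTG in Pygl. By contrast the window of Pfkm held neither motif, and those of its counterparts Pfkl and Pfkp held 4 and 2 GGGCGG.

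The same count was made over all members. CAGCTG was found in 4 of 18 starts of muscle isoforms (22.2%), 1 of 14 starts of isoforms of other cells (7.1%) and 12% of all 33465 windows of the table. GGGCGG was found in 5 of 18 (27.8%), 10 of 14 (71.4%) and 30.5% of all windows. The bases CG followed each other a median of 7 times in the windows of muscle isoforms, 17 times in those of other cells and 5 times in all windows. TATAAA was in 3 of 18 starts of muscle isoforms, in 0 of 14 of the other isoforms and in 12.9% of all windows, and ACGTG, the core of the hypoxia response element, in 8 of 18 and in 8 of 14, against 16.6% of all windows. Both strands were searched, and some genes gave more than 1 start. Of the 7 starts of shared enzymes 6 held GGGCGG (85.7%), 1 CAGCTG, 1 TATAAA and 2 ACGTG, and the median count of CG was 17. These letter matches describe the windows and say nothing of whether a factor was bound in these muscles.

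The contrast of isoforms was then taken within each muscle as the log2 ratio of the muscle isoform to its counterpart, which does not depend on how libraries are scaled apart from the added 1 TPM. Over 10 ratios on 4 days the injured and contralateral muscles were compared with two-sided permutation tests on the difference in mean log2 ratio, with adjustment over all 40. Labels were exchanged over all muscles of a day, so that neither the pairing of muscles by rat nor the repair arm was taken into account. Ldha/Ldhb and Slc16a3/Slc16a1 were not among the 10 and were not tested. Ldha/Ldhb was higher in injured TA at 3 DPI, as given above, and Slc16a3/Slc16a1 was at 0.26 in injured and 1.70 in contralateral TA. At 3 DPI all 10 tested ratios were lower in injured TA (exact permutation, adjusted p = 0.00222 for 9 of them and 0.00245 for Pfkfb1/Pfkfb3), and 9 of 10 did not overlap between the groups. The difference in mean log2 ratio, injured minus contralateral, was -6.03 for Pygm/Pygl, -5.80 for Pfkm/Pfkp, -5.67 for Slc2a4/Slc2a1, -5.49 for Pfkm/Pfkl, -5.25 for Pgam2/Pgam1, -5.08 for Hk2/Hk3 and -4.83 for Eno3/Eno1. It was -3.33 for Aldoa/Aldoc, -2.82 for Hk2/Hk1 and -2.52 for Pfkfb1/Pfkfb3.

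At 7 DPI 9 of 10 ratios passed, at 14 DPI 9 and at 28 DPI 8, all lower in injured TA. The adjusted p-value (exact permutation) at 28 DPI was 0.00245 for the 6 ratios that reached the smallest p this size allows (0.00202), 0.00693 for Aldoa/Aldoc and 0.0135 for Hk2/Hk3. At 28 DPI the mean log2 ratio of Pfkm/Pfkp was 8.49 ± 0.57 in injured (SD, n = 8) and 10.7 ± 0.17 in contralateral TA (n = 4), beside 10.9 ± 0.14 in control muscles. That of Pygm/Pygl was 10.1 ± 0.64 against 12.2 ± 0.09, and that of Slc2a4/Slc2a1 5.98 ± 0.47 against 7.47 ± 0.29. Eno3/Eno1 had come closest, with 5.26 ± 0.39 against 5.64 ± 0.16, a difference of -0.39 that did not pass (exact permutation, adjusted p = 0.0808). Hk2/Hk1 moved little between 3 and 14 DPI in injured TA (0.83 ± 0.43, 1.17 ± 0.59 and 1.21 ± 0.27) and was at 1.95 ± 0.31 at 28 DPI against 3.42 ± 0.23 in contralateral TA. Pfkfb1/Pfkfb3 did not pass at 7, 14 or 28 DPI (permutation, adjusted p = 0.0854, 0.826 and 0.261), and its 14-day difference of -0.13 turned to 0.02 without 1 injured muscle of a grafted rat, to 0.51 without 1 contralateral muscle of an unrepaired rat and to 0.13 with running rats added. Its 7-day difference of -0.55 passed without 1 contralateral muscle of an unrepaired rat (-0.66).

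With unrepaired rats alone, at 8 against 4 muscles on day 7, 8 ratios still passed, while at 3, 14 and 28 DPI the groups were too small (3 against 2, or 4 against 2 muscles) for any exact p to pass.

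**Figure D3:**
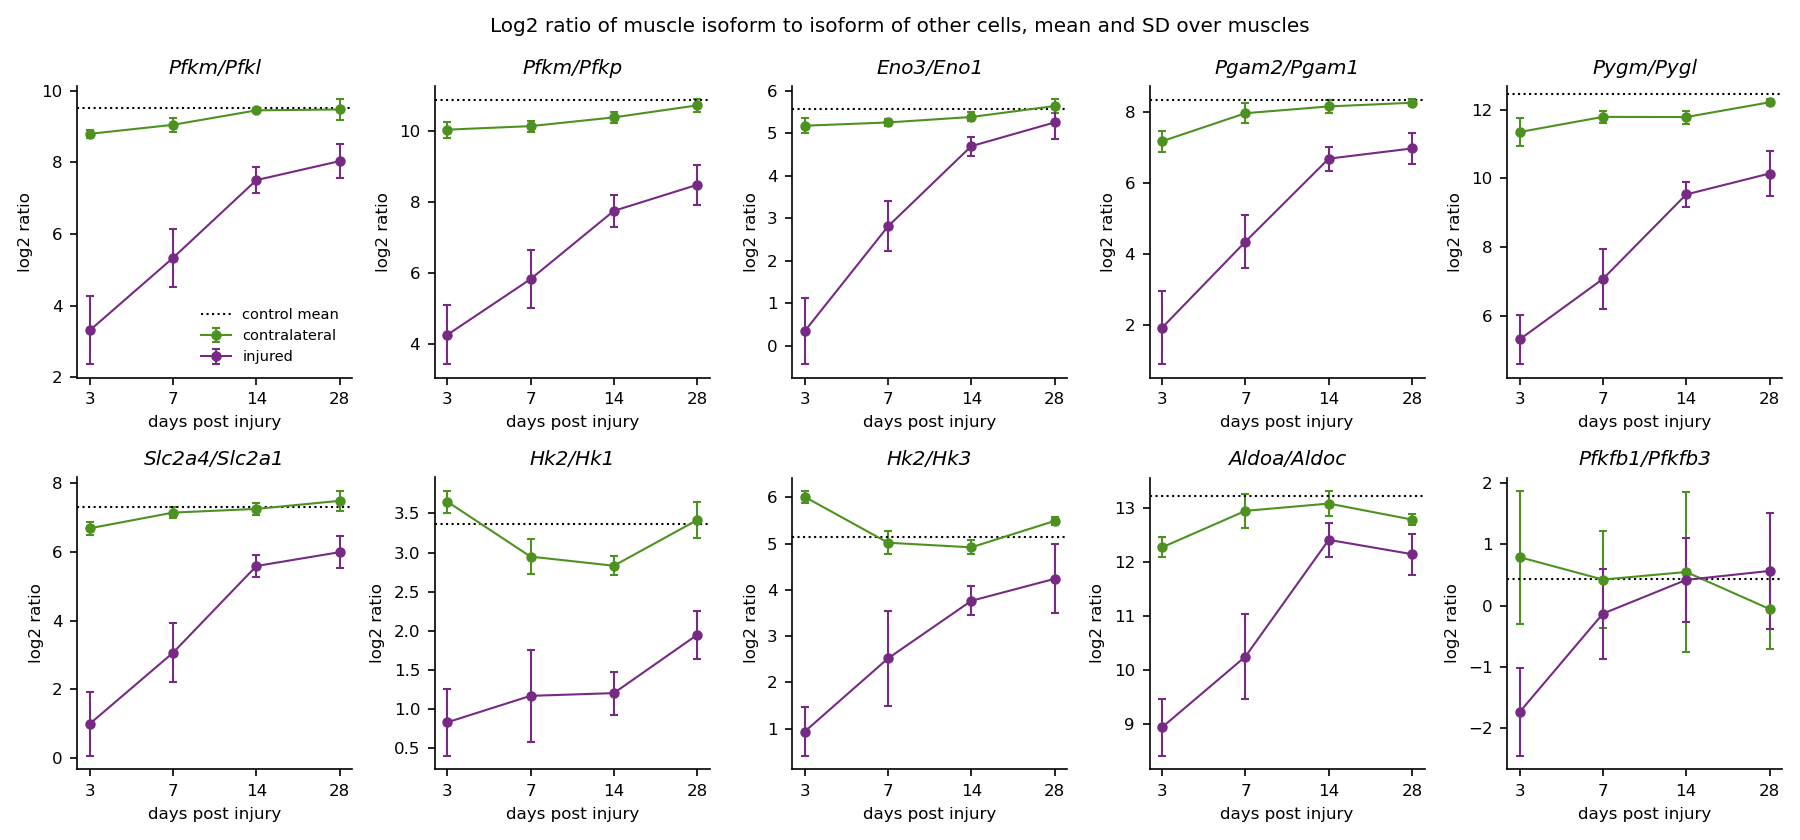
Mean log2 ratio of muscle isoform to isoform of other cells with its SD over muscles, in injured and contralateral TA by day, with the control mean dotted. In 9 of 10 panels the injured line starts below the contralateral one at 3 days without overlap and is higher at 28 than at 3 days, and Eno3/Eno1 comes within 0.39 of the contralateral mean.

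Markers of other cells moved with these values. All 14 myofiber markers (among them Ckm, Acta1 and Atp2a1) fell at 3 DPI and 10 of 14 at 7 DPI, with none called at 14 and 28 DPI, and their median log2 fold changes were -1.98, -1.32, -0.44 and -0.26. After size factors 14, 14, 9 and 4 of the 14 fell, with medians of -2.63, -2.34, -1.13 and -0.80. All 11 leukocyte markers in the table rose at 3, 7 and 14 DPI and 10 of 11 at 28 DPI, and all 8 fibroblast markers rose on each of the 4 days. The summed leukocyte markers ran from 5812 to 9624 TPM in injured and from 151 to 373 TPM in contralateral TA at 3 DPI, and from 447 to 1111 and from 123 to 137.3 TPM at 28 DPI. The summed fibroblast markers ran from 5105 to 17091 and from 641 to 1497 TPM at 3 DPI, and from 2315 to 5500 and from 328 to 441 TPM at 28 DPI. Of 5 endothelial markers 1, 4, 2 and 1 rose on the 4 days on TPM and 0 on each day after size factors, of 5 markers of satellite cells and myoblasts 3, 4, 4 and 4 rose (3 on each day after size factors), and none of 3 red cell markers was called. Of all genes 34.8%, 43.8%, 23.4% and 16% rose on these days on TPM. No defining marker of these lists was at 0 in injured TA at 3 DPI. Fewer fibers in the sample and less RNA per fiber cannot be told apart in whole muscle, and the part of the other cells in the results on isoforms was not tested.

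The muscle isoforms were also set against the myofiber markers within each muscle. The 18 isoforms summed to 17.9 ± 0.44 TPM for each 100 TPM of myofiber markers in contralateral TA at 3 DPI and to 14.9 ± 1.63 in injured TA, with ranges that overlapped. At 7 DPI these values were 17.3 ± 0.84 and 13.1 ± 1.26, at 14 DPI 16.6 ± 0.38 and 13.2 ± 1.07, and at 28 DPI 18.7 ± 0.78 and 14.7 ± 2.0. At 7, 14 and 28 DPI every injured muscle lay below every contralateral muscle. The control muscles were at 18.7 ± 0.68. The comparison was chosen after the data had been seen and is given without a test.

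The other genes of the pathway were not divided by cell. From a list of 46 further genes, 45 were in the table and 39 were tested. At 3 DPI 8 of 39 rose and 14 fell, at 7 DPI 11 and 8, at 14 DPI 7 and 1 and at 28 DPI 3 and 0. Of all genes 34.8%, 43.8%, 23.4% and 16% rose and 6.39%, 2.62%, 0.344% and 0.265% fell on these days, so that the rises lay under the background. After size factors 5 rose and 18 fell, then 6 and 19, 1 and 12, and 1 and 6. The shares of all genes on that scale were 21.2% and 14.5%, 20% and 13.3%, 12% and 5.05%, and 8.59% and 2.21%. On TPM the median log2 fold changes of the 39 genes were -0.31, -0.01, 0.28 and 0.07. Among those that fell at 3 DPI were glycerol 3-phosphate dehydrogenase Gpd1 (67.0 against 579 TPM, -3.10 ± 0.30), the mitochondrial Gpd2 (-2.65 ± 0.18) and the AMP kinase subunit Prkaa2 (-2.32 ± 0.33). The highest were the pyruvate dehydrogenase kinase Pdk3 (15.5 against 1.06 TPM, 2.95 ± 0.17), Pgm2 (2.37 ± 0.15) and Slc2a3, the Glut3 transporter (16.96 against 2.92 TPM, 2.13 ± 0.18). Hif1a, which encodes a subunit of the hypoxia-inducible factor, rose at 3, 7 and 14 DPI (2.09 ± 0.20, 2.59 ± 0.14 and 1.44 ± 0.20). Pdk3 was the highest of these genes on all 4 days and was still at 3.81 against 0.69 TPM at 28 DPI (1.47 ± 0.17). Gpd1 was the lowest of the called genes at 3, 7 and 14 DPI, and at 14 DPI the single fall (392 against 783 TPM, -1.01 ± 0.30). At 28 DPI the 3 rises were Pdk3, Pgm5 and Pgm2.

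The change with time was tested as the injury effect at 28 days minus that at 3 days. It was higher at 28 days for 18 of the 37 genes and lower for 8, beside 6.83% and 15.5% of all genes. The 18 were 15 muscle isoforms, the shared Tpi1 and Phkb, and Ldhb, from 2.59 ± 0.37 for Phkg1 and 2.45 ± 0.43 for Pfkfb1 down to 1.07 ± 0.21 for Tpi1. The 8 were Hk3 (-3.43 ± 0.39), Eno1 (-2.20 ± 0.15), Pgam1, Pygl, Pfkl, Slc2a1, Pfkp and Hk1 (-1.004 ± 0.20), all isoforms of other cells. The Hk1 change lay at the limit and missed it without any of 10 muscles. Hk2, Ldha and Slc16a3 were the muscle isoforms not called (0.28 ± 0.28, 0.37 ± 0.19 and 0.82 ± 0.35).

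Against the 4 control muscles, unrepaired injured TA alone held 16, 14, 2 and 0 falls among the 18 muscle isoforms on the 4 days and 9, 7, 5 and 4 rises among the 12 isoforms of other cells. At 3 DPI (3 against 4 muscles) 9 members rose and 24 fell, beside 48.3% and 4.24% of all genes, and Hk2, Slc16a1, Gbe1 and Gyg1 were not called. At 7 DPI (8 muscles) 7 rose and 20 fell, beside 45.6% and 2.42%. At 14 DPI (4 muscles) 5 rose and 3 fell, beside 25% and 0.547%, and at 28 DPI (4 muscles) 4 rose and 1 fell, beside 21.1% and 0.212%. After size factors the counts were 7 and 27 at 3 DPI (24.5% and 16.9% of all genes), 6 and 27 at 7 DPI (21.9% and 14.2%), 3 and 20 at 14 DPI (15.8% and 5.90%) and 2 and 16 at 28 DPI (11.5% and 3.17%). The 4 rises at 28 DPI were Slc2a1, Hk1, Pfkp and Pygl and the fall was Pfkfb3 (33.4 against 79.6 TPM, -1.07). The comparisons with contralateral and with control TA share the injured muscles. The 4 control muscles come from 2 rats, and the right TA of 1 control rat stood apart, with 14.0 TPM of Hk2 beside 43.3, 46.8 and 48.0 in the others and 35551 TPM of Gapdh beside 22312, 23061 and 24402. Without this muscle 32, 28, 9 and 6 members were called against control on the 4 days, compared with 33, 27, 8 and 5 with it, and Aldoa and Pgam1 at 14 DPI (-0.88 and 0.97) were no longer called. Pfkfb3 at 28 DPI was -0.69 without the right TA of the other control rat.

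The contralateral TA differed from control at 3 DPI by less than the injured TA did. Its muscle isoforms summed to 46214 ± 3388 TPM against 60679 ± 4841 in control (n = 4 each), without overlap, and 23 of 37 members did not overlap, beside 55.4% of all genes. The log2 ratio of Pgam2/Pgam1 was 7.19 ± 0.30 against 8.34 ± 0.40 and that of Pygm/Pygl 11.3 ± 0.41 against 12.5 ± 0.18, given without a test. At 3 DPI (4 against 4 muscles) 1 of 37 members was called, beside 7.15% of all genes. This was Hk2, at 61.6, 67.3, 74.8 and 77.7 TPM against 14.0, 43.3, 46.8 and 48.0 TPM (log2 fold change 1.01 ± 0.23, adjusted p = 0.000142), and it was 0.60 without the right TA of that control rat, 0.93 without the contralateral muscle of unrepaired rat 010 and 0.97 without that of grafted rat 013. No member was called at 7, 14 or 28 DPI, beside 1.04%, 1.03% and 0.512% of all genes, and at an unadjusted p under 0.05 there were 19, 9, 3 and 0 members on the 4 days, beside 69.5%, 28.2%, 20.9% and 16.8% of all genes. At 3 DPI 16 members, Hk2 included, had an adjusted p under 0.05, beside 66.4% of all genes. Pkm (2865 ± 277 against 4725 ± 264 TPM, -0.73 ± 0.17), Pgam2 (-0.72 ± 0.26) and Pgk1 (-0.55) were lower, and Slc2a1 (2.86 against 1.16 TPM, 0.84 ± 0.26), Pygl (0.84 ± 0.20) and Pfkp (0.81) were higher. After size factors no member rose and 7 fell (3.26% of all genes called). In the same muscles 9 of 11 leukocyte markers and all 8 fibroblast markers were higher than in control, and their part in these differences was not tested.

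Repair with the minced graft gave no called member on any day in the fit on log2(TPM + 1), and 1 at 7 DPI, Hk3, with a pseudocount of 0.1 TPM (log2 fold change 1.13) or with all libraries kept (1.28). In injured TA without running, the graft was compared with no repair in 7 against 3 muscles at 3, 8 against 8 at 7, 4 against 4 at 14 and 4 against 4 at 28 DPI, and the share of all genes called was 0.00883%, 0.0883%, 0.0265% and 0%. The counts of members at an unadjusted p under 0.05 were 9, 10, 0 and 0, beside 17.3%, 27%, 5.23% and 1.24% of all genes. At 7 DPI 5 of 37 members passed on the adjusted p alone, beside 8.19% of all genes, all 5 of them isoforms of other cells and all higher with the graft. Hk3 was at 10.8 ± 3.27 TPM with the graft and 5.95 ± 4.16 TPM without (log2 fold change 0.96 ± 0.22, adjusted p = 0.00497), Pygl at 11.4 to 20.6 and 4.76 to 14.9 (0.57 ± 0.14, 0.00929) and Eno1 at 483 ± 54.6 and 386 ± 48.9 (0.33 ± 0.09, 0.0133). Pgam1 and Pfkp differed by 0.46 and 0.48. The ranges overlapped for each of these genes. In the same muscles the leukocyte markers had a median log2 difference of 0.68 (-0.02 to 0.94) and summed to 3740 ± 859 TPM with the graft and 2530 ± 1038 TPM without, with none of 11 called, and the fibroblast markers had a median of 0.18. Their part in these differences was not tested. The muscle isoforms summed to 18282 ± 5050 TPM without and 15649 ± 4484 TPM with the graft at 7 DPI (n = 8 each) and to 40333 ± 5199 and 38055 ± 10339 TPM at 28 DPI (n = 4 each), with ranges that overlapped. The median log2 difference over the 37 genes was -0.09, -0.14, -0.12 and -0.06 on the 4 days.

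**Figure D4:**
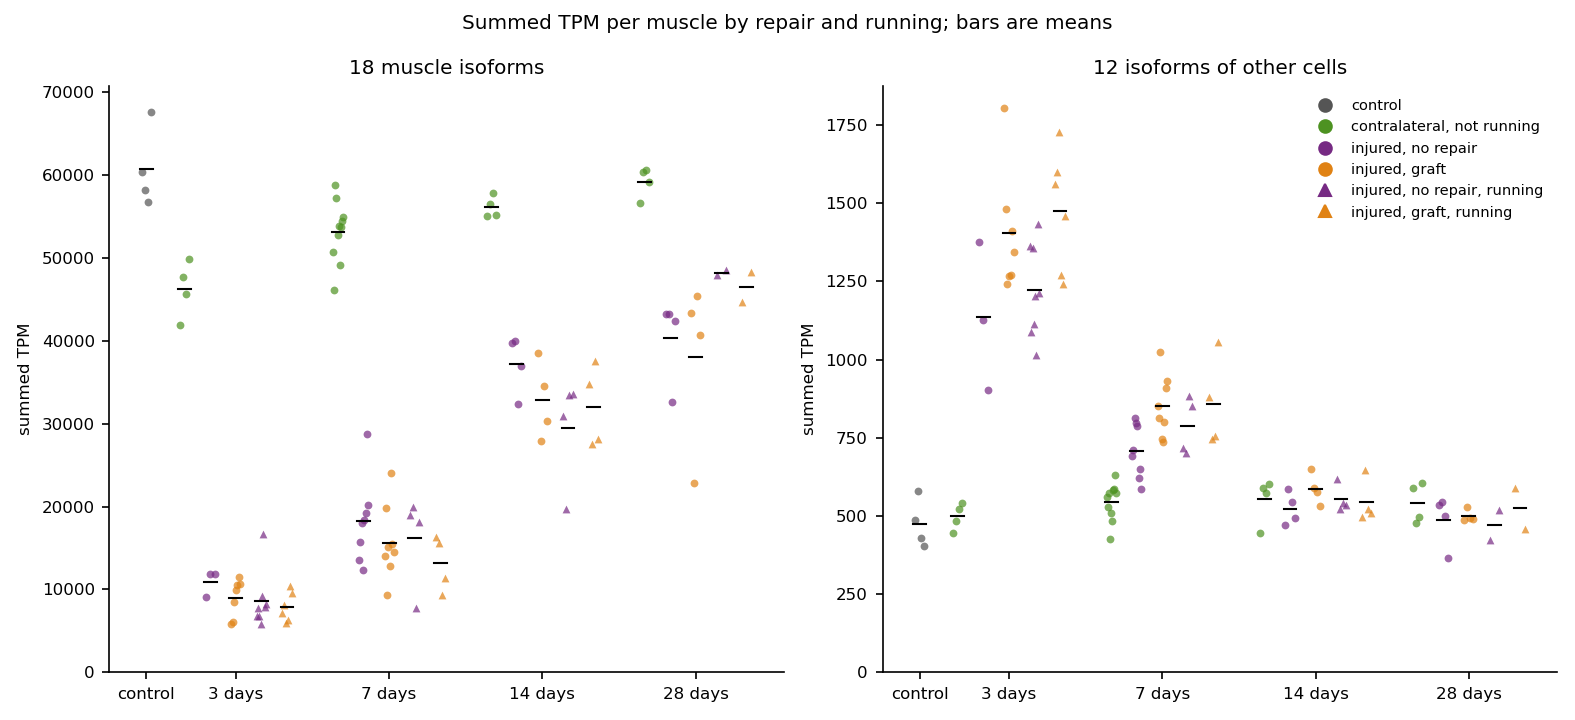
Summed TPM of the 18 muscle isoforms and of the 12 isoforms of other cells in each muscle, by day, repair (colour) and running (triangles), with bars at the means. At 28 days the 8 injured muscles without running lie at 22814 to 45377 and the 4 of running rats at 44596 to 48485 TPM in the sum of muscle isoforms.

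Running likewise gave no called member. In injured TA with both repair arms, 14 muscles of running rats were compared with 10 at 3, 8 with 16 at 7, 8 with 8 at 14 and 4 with 8 at 28 DPI, and 0.0177%, 0%, 0% and 0.309% of all genes were called. At an unadjusted p under 0.05 there were 6, 5, 0 and 2 members, beside 16%, 15.8%, 5.17% and 13.7% of all genes. The log2 differences of the members ran from -0.47 to 0.23 at 3 DPI, from -0.32 to 0.28 at 7 DPI, from -0.59 to 0.37 at 14 DPI and from -0.14 to 0.53 at 28 DPI. At 28 DPI the median was 0.20. The lowest adjusted p of any member over the 4 days was 0.163, at 3 DPI.

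The injured and contralateral TA of the same rat could be set side by side in 4, 10, 4 and 4 rats without running. At 3 DPI 28 members were lower and 9 higher in the injured muscle of all 4 rats, beside 18.4% and 63.4% of all genes. At 7 DPI 23 were lower and 9 higher in all 10 rats (6.65% and 73.1% of all genes), at 14 DPI 22 and 8 in all 4 (9.32% and 74.6%), and at 28 DPI 23 and 9 in all 4 (8.47% and 71.8%). These counts have no size limit and carry no test.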

How the data were processed

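RNA from whole TA muscles was sequenced as paired-end Illumina libraries and quantified by the authors with kallisto against the GenBank annotation of the rat genome, and the deposited table holds TPM per gene symbol and library, with no counts, so that depth is unknown. The submitters' processing notes also name DESeq. The table held 138 libraries and 16181 complete symbols, and its last, incomplete entry was left out. Because 9 libraries had labels that disagreed with each other, they entered no comparison. Libraries with fewer than 7000 symbols above 1 TPM were dropped (13 libraries), and 2 muscles with several libraries were averaged.

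Genes with a mean of at least 1 TPM in any of 31 groups were kept (11328). All groups entered a single linear model of log2(TPM + 1), whose variances limma 3.58.1 (R 4.3.3) moderated along the mean level (trend), with 83 residual degrees of freedom. Both arms were weighted equally where they were combined. P-values were adjusted by Benjamini-Hochberg over all genes tested, and called genes had an adjusted p under 0.05 and a log2 fold change beyond 1. A fold change on this scale understates that of low genes. The script was tested on simulated data. Ratios were compared with two-sided permutation tests (Python 3.11.15, scipy 1.17.1), exact except at 7 days, where 100000 resamples were drawn. The rat did not enter these tests.

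Same-numbered muscles came from the same rat. Over 36 such pairs the deviations from group means correlated by 0.07 on average, with a block correlation of 0.026. The rat as a random block was an alternative, as were a pseudocount of 0.1, no filter, size factors, all libraries kept, unrepaired or non-running rats alone, each library as its own sample, and leaving out 71 muscles in turn. P-values measure the spread between these muscles. Named genes were the 37 members, and of the other pathway genes the 3 highest and 3 lowest called on each day, with Hif1a at 3 days added after its values were seen. One further gene of the pathway is not reported here by name. The members and lists were chosen with earlier results of these data known. Promoter windows and symbols came from RefSeq (GRCr8).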

Additional observations from a re-analysis of the deposited data

Results flagged for a closer look

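Over 13 measures (10 ratios and 3 summed levels), each of the 8 groups of 4 to 10 muscles was searched for a muscle far from the rest of its group. Of all these searches 13 found such a value (12.5%), where chance gives about 1 in 20. The injured muscle of grafted rat 076 at 28 DPI was far below the others in 4 of the 9 tested ratios in which it was the lowest, with a log2 ratio of 4.3854 for Eno3/Eno1 (nearest muscle 5.0343), 6.0303 for Pgam2/Pgam1 (6.7545), 8.7082 for Pygm/Pygl (9.829) and 11.298 for Aldoa/Aldoc (12.023). In the right TA of control rat 038 the log2 ratio of Hk2/Hk1 was 2.4513 (nearest 3.5892) and that of Hk2/Hk3 3.9107 (5.4689).

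The remaining muscles were each found once or in both muscles of a rat. In contralateral TA the log2 ratio of Hk2/Hk1 was 3.4437 in grafted rat 014 at 3 DPI, that of Eno3/Eno1 5.4414 in a grafted rat, of Hk2/Hk3 4.3962 in an unrepaired rat and of Aldoa/Aldoc 12.2 in grafted rat 016 at 7 DPI, and of Pfkm/Pfkp 10.634 in a grafted rat at 14 DPI. In the injured TA of that same rat the log2 ratio of Pfkm/Pfkl was 6.7263 (nearest 7.3627). The isoforms of other cells summed to 366.15 TPM in the injured TA of unrepaired rat 082 at 28 DPI (nearest 488.08).

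The injury effect differed between 28 and 3 DPI, by the limma test of the difference itself, for 18 members that were higher and 8 that were lower at 28 days.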

How the results depend on the processing

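Scaling by size factors gave 25 and 15 called members against contralateral TA at 14 and 28 DPI (main 11 and 8), 23 and 18 against control (main 8 and 5), and 7 for contralateral against control at 3 DPI (main 1), which was 5 with a pseudocount of 0.1 and 0 with all libraries kept. With all libraries kept 5 members were called against control at 14 DPI. For graft against no repair at 7 DPI a pseudocount of 0.1 and all libraries kept each gave 1, Hk3 (main 0). With Pfkfb3 and Ldhb left out, chosen after seeing the data, the injured minus contralateral sum of isoforms of other cells at 28 DPI turned from -49.1 to 16.2 TPM. With unrepaired rats alone 0 ratios passed at 3, 14 and 28 DPI, since these group sizes allow no smaller p. With the rat as a replicate block 28, 28, 11 and 8 members were called against contralateral TA (main 28, 29, 11 and 8), and the block changed no other call. Leaving out muscles in turn gave 28 to 29, 28, 10 to 11 and 6 to 9 against contralateral TA at 3, 7, 14 and 28 DPI, 31 to 33, 26 to 28, 6 to 10 and 4 to 6 against control, 0 to 1, 0, 0 to 1 and 0 for contralateral against control, 0 for graft at 3, 14 and 28 DPI (no muscle was left out at 7 DPI) and for running, 25 to 27 for 28 against 3 days, and 10, 9 to 10, 9 and 8 passing ratios. Without the right TA of control rat 038, 1 member was called for contralateral against control at 14 DPI. Only groups of at most 5 muscles had muscles left out in turn. The Pfkfb1/Pfkfb3 difference at 14 DPI (-0.13) reversed to 0.134 with running rats added and ran from -0.455 to 0.505 with 1 muscle left out in turn, reversed in 2 cases (0.018 and 0.505). The causes were not tested. No other called member or passing ratio reversed. Hk2 and Eno1 at 7 DPI, not called in the main fit, turned from 0.51 and 0.73 to -0.49 and -0.29 with size factors. With all libraries kept they were at 1.11 and 1.60, and both were called as rises. Over all muscles left out 1783 gene and ratio values kept their call and 49 lost it. TPM carries no depth, so that low levels such as those of Hk3 in control TA cannot be bounded.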

Other observations

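The labels of 8 libraries of running rats at 28 DPI disagreed on whether the muscle was injured. In the 4 libraries titled as injured but labelled as free of VML, Pygl was listed at 0.74, 1.09, 0.49 and 0.88 TPM, Pfkm at 3201, 2964, 3347 and 2958 TPM and Hk1 at 2.94, 2.96, 2.67 and 3.49 TPM. In the 4 titled as control but labelled as VML, Pygl was listed at 2.77, 2.97, 2.55 and 3.33 TPM, Pfkm at 2563, 2270, 2057 and 1946 TPM and Hk1 at 6.55, 7.83, 8.82 and 10.81 TPM. The ranges of the 4 and 4 libraries did not overlap for any of these 3 genes. One further contralateral library carried a different day from the other libraries of its rat, and in it Pygl was listed at 1.58, Pfkm at 2652 and Hk1 at 4.49 TPM.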
